A study of Mus musculus with 6 samples.

Results

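The genes described here are the Wnt ligands, their Frizzled, LRP and ROR receptors, the R-spondin agonists, the secreted Wnt inhibitors and a few nuclear and feedback genes of the pathway. A rule on gene symbols that uses no expression value picked them, which gave 50 of the 35275 genes in the count table. The rule was nevertheless chosen with earlier results of these data known. Of the 50, 19 are Wnt ligands, 4 R-spondins, 5 secreted Frizzled-related decoys with Frzb, 4 Dickkopfs, 10 Frizzled receptors, 2 LRP co-receptors and 2 ROR receptors. The rest are Wif1, Lef1, Tcf7 and Axin2. RNA was sequenced from NIH3T3 cells, an established line of mouse embryo fibroblasts. The 3 libraries labelled NgBR overexpression came from NIH3T3 cells stably transfected with an HA-tagged Nogo-B receptor (NgBR) plasmid and selected with G418. The 3 wild-type libraries came from the parental line, for which no transfection or selection is given. Both were grown in medium with 10% calf serum, and the sources used here do not give whether the transfected line is 1 clone or a pool, nor the species of the NgBR insert. The labels number the replicates but name no separate cultures. The p-values therefore measure only a spread among libraries that may be technical.

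Wnt proteins are secreted lipid-modified ligands. In the canonical branch they bring a Frizzled receptor and LRP5 or LRP6 together at the cell surface, which spares beta-catenin from degradation and lets it act with TCF and LEF factors in the nucleus. In the other branches, ligands such as Wnt5a and Wnt11 act through Frizzled with ROR receptors or planar polarity proteins on cell shape and movement. Fibroblasts are a known source of secreted inhibitors, which bind the ligand (the Frizzled-related decoys and Wif1) or the LRP co-receptor (most Dickkopfs).

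The design asks what raised NgBR does to the transcriptome of these fibroblasts. The libraries labelled NgBR overexpression, called labelled libraries 1 to 3 from here on, held between 7369961 and 10358381 counts, and the wild-type libraries between 29515072 and 35511769. The mean depth was thus 3.50-fold higher in wild type, which runs with the groups. Nus1, the gene of NgBR, was at 178 ± 11 CPM (counts scaled to library size) in the labelled libraries and 211 ± 22.8 CPM in wild type (SD, n = 3 each). Its log2 fold change was -0.24 (adjusted p = 0.786, edgeR quasi-likelihood test), so that counts at mouse Nus1 were not higher under the label, and its CPM ranges lay apart with the labelled libraries lower. All 9 fibroblast markers examined were abundant, with a summed level of 21536 to 31933 CPM in the labelled libraries and 20262 to 24243 CPM in wild type. edgeR and DESeq2 each called 0 of the 9, against 429 and 719 of all 12651 genes tested. An unadjusted edgeR p under 0.05 was found for 0 of the 9, against 1444 of the 12651. Separate ranges were found for 3 of the 9, against 18.6% of all genes tested. The 6 epithelial markers summed to at most 0.982 CPM in the labelled libraries and 0.301 CPM in wild type, with Epcam, Krt18 and Cldn4 at 0 counts. The 5 endothelial markers summed to 3.06 to 4.21 CPM in the labelled libraries and 1.87 to 2.52 CPM in wild type, and 4 leukocyte markers to 2.95 to 3.96 and 2.20 to 4.28 CPM for the labelled and the wild-type libraries. The 5 muscle markers summed to 4.35 to 16.6 CPM in the labelled libraries and 1.59 to 3.22 CPM in wild type. Of these, Myod1 and Myog were at 0 counts. Tnnt2 made up most of each labelled sum, at 2.28 to 13.5 CPM, against 0.744 to 2.17 CPM in wild type. Des was at 1.53 to 2.53 CPM in the labelled libraries and 0.575 to 0.873 CPM in wild type. Acta1 was at most 0.561 CPM in any library. The 5 neural markers summed to 10.2 to 24.1 CPM in the labelled libraries and 7.72 to 9.99 CPM in wild type. Of the neural markers, edgeR called Syt1 higher (adjusted p = 0.0308), which passed the filter only through the labelled libraries. DESeq2 called Syt1 and Map2 of the neural markers and Tnnt2 of the muscle markers (adjusted p = 0.00588, 0.00215 and 0.000242). The part of depth and of muscle and neural transcripts in the results below was not tested.

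Of the 50 genes, 21 passed the filter on low counts, which asks for about 0.502 CPM in at least 3 libraries. By edgeR's quasi-likelihood test over all genes that passed it, 4 of the 21 were called at an adjusted p under 0.05, against 3.39% of all 12651 genes tested. Sfrp1, Sfrp2 and Dkk3, all genes of secreted proteins, were lower in the labelled libraries, where 1.35% of all genes were called lower. Wnt11, which passed the filter only through the labelled libraries, was higher, where 2.04% of all genes were called higher. Separate CPM ranges of the groups were found for 9 of the 21, against 18.6% of all genes tested. Of these, 3 (Wnt11, Wnt5a and Fzd7) lay higher in the labelled libraries, against 9.21% of all genes, and 6 (Sfrp1, Sfrp2, Dkk2, Dkk3, Fzd8 and Ror2) lay lower, against 9.37%. The median log2 fold change of the 21 was 0.01, and that of all tested genes was -0.01. The calls over all genes numbered 225 without labelled library 1, 274 without labelled library 3 and 250 without wild-type library 1, against 429 with every library.

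**Figure D1:**
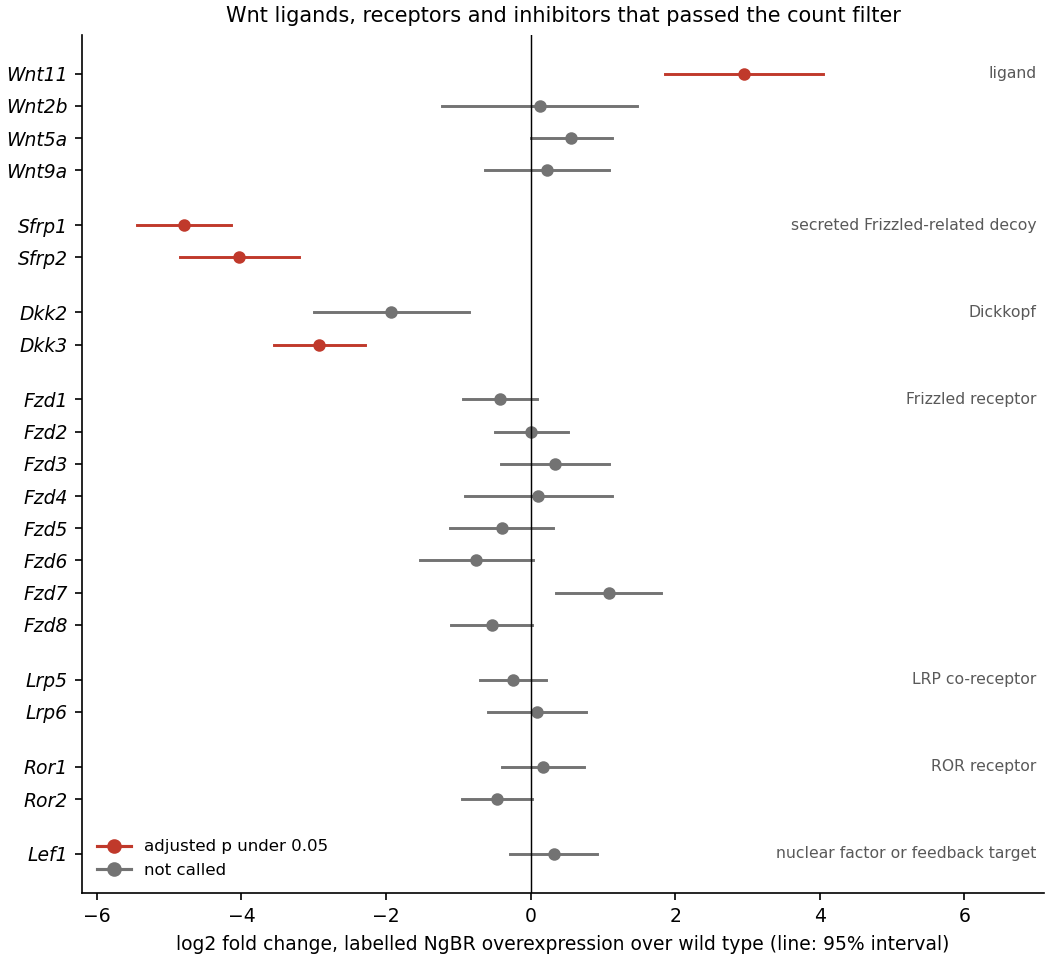
Log2 fold change of the 21 genes that passed the count filter, labelled NgBR overexpression over wild type, grouped by role, with the 95% interval of each as a line and called genes in red. The decoys Sfrp1 (-4.79) and Sfrp2 (-4.03) and the Dickkopf Dkk3 (-2.92) lie far to the left, Wnt11 (2.95) lies to the right, and edgeR called no receptor, whereas DESeq2 called Fzd7.

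Of the 4 tested secreted inhibitors, which were grouped by gene family and so include the divergent Dkk3, edgeR called 3 lower, against 1.35% of all tested genes. All 4 had separate, lower CPM ranges, against 9.37% of all tested genes. Sfrp1, a secreted protein with a Frizzled-like ligand-binding domain, was the most abundant inhibitor of the wild-type cells in TPM and reached only a small part of that level under the label. It was at 5.89, 9.20 and 5.45 CPM in labelled libraries 1 to 3, against 206, 184 and 182 CPM in wild-type libraries 1 to 3. The groups lie far apart, and every labelled library is below every wild-type library. Sfrp1 (ENSMUSG00000031548, mm10 chromosome 8, 23411502 to 23449632, plus strand, protein-coding) thus fell to 6.85 ± 2.05 CPM in the labelled libraries, against 190 ± 13.2 CPM in wild type (SD, n = 3 each), 27.8-fold higher in wild type. The log2 fold change was -4.79 (SE 0.29, 95% interval -5.44 to -4.14, adjusted p = 0.000235, edgeR), which ranked 40 among the 12651 tested genes, counted from the lowest. In wild type its mean CPM, which is not scaled to length, stood at percentile 91.7 of the tested genes. In bulk RNA, fewer expressing cells and less RNA per cell cannot be told apart.

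Sfrp2, a decoy of the same family, was at 1.12, 1.09 and 0.669 CPM in labelled libraries 1 to 3, against 14.7, 11.7 and 20.1 CPM in wild-type libraries 1 to 3. The labelled libraries all lie near 1 CPM and the groups do not overlap. Sfrp2 (ENSMUSG00000027996, mm10 chromosome 3, 83766321 to 83774316, plus strand, protein-coding) fell by a log2 fold change estimated at -4.03 (SE 0.36, 95% interval -4.85 to -3.20, adjusted p = 0.00068, edgeR). An annotated antisense gene, Gm26771, shares exonic sequence with it and had 0, 4 and 0 counts in labelled libraries 1 to 3, against 27, 17 and 12 counts in wild-type libraries 1 to 3. The sources used here do not state the strand setting of the counting, so that reads of the pair cannot be told apart, but Sfrp2 had 26 counts in the labelled libraries together and 1529 in wild type. Frzb, the decoy also known as sFRP3, had 0 counts in the labelled libraries and 9, 3 and 8 counts in wild-type libraries 1 to 3. Against a floor of 3 counts over the labelled group, 0.108 CPM, this is at least 1.89-fold lower, or 1.20-fold without labelled library 2 and 1.18-fold without labelled library 3. Sfrp4 had 1 count in the labelled libraries and 3 in wild type, and Sfrp5 had 1 and 0.

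Dkk3, a divergent Dickkopf that is not known to bind LRP5 or LRP6 as its relatives do, was at 4.21, 6.13 and 5.45 CPM in labelled libraries 1 to 3, against 41.7, 30.5 and 48.2 CPM in wild-type libraries 1 to 3. No labelled library comes near a wild-type one. Dkk3 (ENSMUSG00000030772, mm10 chromosome 7, 112116017 to 112159057, minus strand, protein-coding) fell by a log2 fold change estimated at -2.92 (SE 0.28, 95% interval -3.55 to -2.29, adjusted p = 0.000758, edgeR). Dkk2, which binds the LRP co-receptors, was at 2.25, 7.72 and 4.59 CPM in labelled libraries 1 to 3, against 23.8, 9.71 and 22.6 CPM in wild-type libraries 1 to 3. The libraries numbered 2 are the closest pair, highest among the labelled and lowest among the wild-type ones, and the ranges still do not overlap. The log2 fold change of Dkk2 was -1.93 (SE 0.48, 95% interval -3.0 to -0.85, adjusted p = 0.07, edgeR), which was not called. It was called without wild-type library 2 (-2.23, adjusted p = 0.04, edgeR), without both libraries numbered 2 (-2.71, adjusted p = 0.00525, edgeR), without a filter on low counts (adjusted p = 0.00107, edgeR) and by DESeq2 (adjusted p = 0.0021). Dkk2 was called in only 5 of the 14 alternative fits. Leaving out labelled libraries 1 to 3 in turn gave adjusted p of 0.224, 0.0545 and 0.208 (edgeR). Leaving out wild-type library 1 or 3 gave 0.194 and 0.153 (edgeR). Dkk1, Dkk4 and Wif1 had 0 counts in all 6 libraries, which allows up to 0.108 CPM over the labelled group and 0.0307 CPM over wild type. Sfrp1, Sfrp2 and Dkk3 were called in all 14 alternative fits, single libraries left out included.

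**Figure D2:**
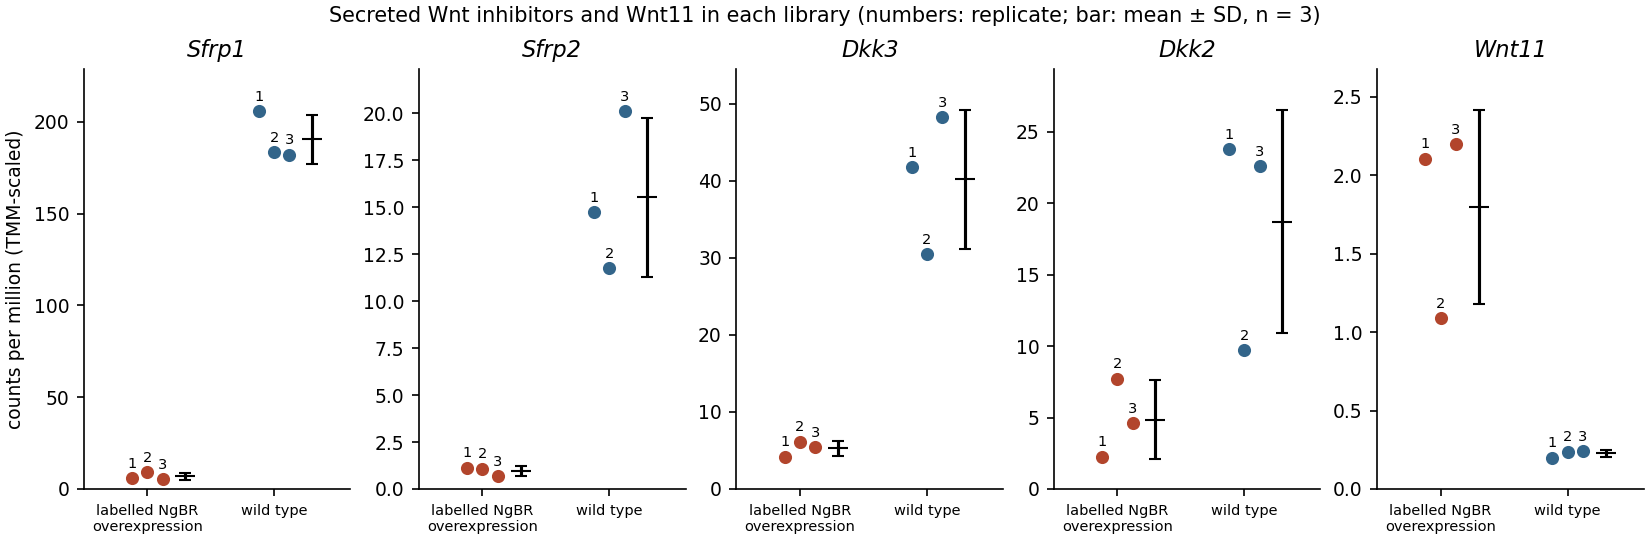
CPM of the 4 tested secreted inhibitors and of Wnt11 in each library, on linear axes from 0, with the replicate number beside each point and the mean ± SD (n = 3) in black. For the inhibitors every labelled library lies below every wild-type library, and for Wnt11 above.

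The bases upstream of the start site are shown for Sfrp2 and Dkk2, as inhibitors with separate, lower ranges, and for Wnt11, as the called ligand. They are RefSeq sequences of build GRCm38.p6, which is mm10, and each runs over the 250 bases before a start that is also the gene's start in the GENCODE annotation. All 3 are on the plus strand, and capitals mark CTTTGA or its reverse complement, the core of the TCF and LEF motif.
Sfrp2, chr3:83766071-83766320: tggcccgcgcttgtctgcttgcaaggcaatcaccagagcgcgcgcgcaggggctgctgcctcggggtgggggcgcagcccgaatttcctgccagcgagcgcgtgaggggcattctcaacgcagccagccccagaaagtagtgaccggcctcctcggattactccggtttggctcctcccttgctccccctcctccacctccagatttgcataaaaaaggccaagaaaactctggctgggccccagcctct
Dkk2, chr3:132085042-132085291: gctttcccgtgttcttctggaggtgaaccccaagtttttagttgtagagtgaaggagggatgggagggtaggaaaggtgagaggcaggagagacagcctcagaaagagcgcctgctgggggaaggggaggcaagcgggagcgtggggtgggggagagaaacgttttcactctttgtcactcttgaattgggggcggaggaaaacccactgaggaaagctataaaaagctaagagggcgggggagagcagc
Wnt11, chr7:98834862-98835111: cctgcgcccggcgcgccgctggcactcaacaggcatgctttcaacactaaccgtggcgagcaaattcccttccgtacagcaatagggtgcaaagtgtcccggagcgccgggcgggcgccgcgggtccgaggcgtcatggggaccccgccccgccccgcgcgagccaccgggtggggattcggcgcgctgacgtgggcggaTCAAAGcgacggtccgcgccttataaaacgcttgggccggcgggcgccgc
Of the motif only the form CTTTGA was searched, on both strands, and it is absent from these letters of Sfrp2 and Dkk2. The Wnt11 window shown has 1 copy, in reverse, that starts 50 bases before the start site. RefSeq has another start for Wnt11, whose window (chr7:98838595-98838844) has 0 copies and 16 CpG dinucleotides. Over all 32851 RefSeq windows of this length, 13.8% hold CTTTGA, and 7 of the 41 windows found for 34 of the 50 genes do. Sfrp1 and Dkk3 are not among the 34, so that no window could be shown for them. The Wnt11 window shown holds 37 CpG dinucleotides, the Sfrp2 window 16 and the Dkk2 window 7, against a median of 6 over all windows. A match describes the letters and is not a measured binding site.

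Levels of different genes were compared per exonic length, as TPM (transcript counts per length, scaled to the same total in every library). The 10 secreted inhibitors, Dkk3 included by family, summed to 13.9, 28.3 and 14.9 TPM in labelled libraries 1 to 3, against 255, 249 and 263 TPM in wild-type libraries 1 to 3. These sums are far apart. The 19 ligands summed to 22.4, 27.0 and 19.6 TPM in labelled libraries 1 to 3, against 14.2, 19.8 and 15.9 TPM in wild-type libraries 1 to 3. The inhibitor sum is thus near that of the ligands in the labelled libraries and far above it in wild type. Sfrp1 made up 31.9 ± 3.48% of the inhibitor sum in the labelled libraries and 64.6 ± 6.35% in wild type (SD, n = 3 each). Dkk3 made up 32.5 ± 4.36% in the labelled libraries and 17.5 ± 2.39% in wild type, and Dkk2 25.3 ± 8.43% in the labelled libraries and 7.26 ± 2.45% in wild type. The order of the inhibitors by mean TPM in wild type was Sfrp1 (165), Dkk3 (44.8), Sfrp2 (27.0) and Dkk2 (18.6). In the labelled libraries Sfrp1 (6.08 ± 2.68 TPM), Dkk3 (5.98 ± 1.75 TPM) and Dkk2 (5.14 ± 3.53 TPM) differed by less than their spread.

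**Figure D3:**
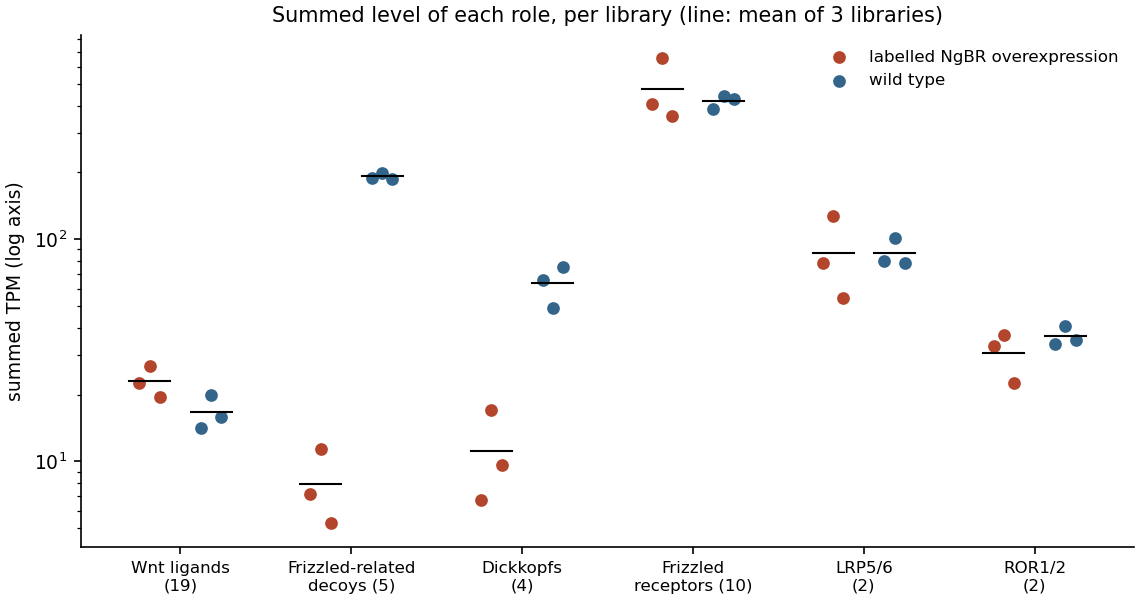
Summed TPM of each role in each library on a log axis, with a line at the mean of 3 libraries and the number of genes in brackets. The decoys (5.26 to 11.3 TPM in the labelled libraries, 188 to 200 TPM in wild type) and the Dickkopfs are separated between the groups, whereas the sums of the Frizzled, LRP and ROR receptors overlap.

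Most Wnt ligands were at or near 0 in both groups. Of the 19, 4 passed the filter, 15 did not, and 4 had 0 counts throughout (Wnt3a, Wnt7b, Wnt9b and Wnt10a). Wnt11, a ligand of the polarity branch, had 15, 11 and 23 counts in labelled libraries 1 to 3, against 7, 7 and 8 counts in the deeper wild-type libraries 1 to 3. In CPM it was at 2.11, 1.09 and 2.20 in labelled libraries 1 to 3, against 0.201, 0.237 and 0.241 in wild-type libraries 1 to 3. The groups do not overlap, and the gene passed the filter only through the labelled libraries. Wnt11 (ENSMUSG00000015957, mm10 chromosome 7, 98835112 to 98855195, plus strand, protein-coding) rose to 1.80 ± 0.615 CPM in the labelled libraries, against 0.226 ± 0.0222 CPM in wild type (SD, n = 3 each). Wnt11 had a log2 fold change estimated at 2.95 (SE 0.48, 95% interval 1.87 to 4.04, adjusted p = 0.0103, edgeR). The call was lost without labelled library 1 (2.83, adjusted p = 0.0619, edgeR), without labelled library 3 (2.77, adjusted p = 0.062, edgeR) and without wild-type library 1 (2.88, adjusted p = 0.0597, edgeR). Once every library was thinned to the depth of the shallowest, Wnt11 was below the filter.

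Wnt5a had the highest mean TPM of the ligands in both groups, although Wnt9a was above it in labelled library 2 (11.7 against 10.5 TPM). In CPM Wnt5a was at 31.3, 18.9 and 26.4 CPM in labelled libraries 1 to 3, against 17.4, 15.5 and 18.8 CPM in wild-type libraries 1 to 3. Labelled library 2 lies barely above wild-type library 3. Its log2 fold change was 0.56 (SE 0.25, 95% interval 0.00 to 1.12, adjusted p = 0.433, edgeR), and the antisense gene Gm2670, which overlaps it, had at most 7 counts in a labelled library and 18 in a wild-type one. Wnt9a was at 3.93, 9.0 and 4.49 CPM in labelled libraries 1 to 3, against 3.78, 6.36 and 4.85 CPM in wild-type libraries 1 to 3. These ranges overlap, library 2 is the highest in each group, and the log2 fold change of 0.23 (adjusted p = 0.919, edgeR) turned to -0.25 without labelled library 2 and to -0.03 without both libraries numbered 2. Wnt2b, between 0.86 and 1.78 CPM in the labelled libraries and 0.391 and 1.76 CPM in wild type, had a log2 fold change of 0.13 (adjusted p = 0.98, edgeR). By mean TPM in wild type the order was Wnt5a (8.31 ± 0.522), Wnt9a (5.79 ± 2.07), Wnt2b (1.03) and Wnt11 (0.208), and the ranges of Wnt9a and Wnt5a overlap.

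Among the untested ligands, Wnt7a had 6 counts in the labelled libraries together and 61 in wild type. The ratio of the pooled levels was 0.347, with an exact 95% counting interval of 0.122 to 0.799. Of the 6 labelled counts, 5 lie in labelled library 2, and without it the ratio was 0.091 with an interval of 0.00227 to 0.527. Wnt1 had 4, 0 and 0 counts in labelled libraries 1 to 3 and 0 in wild type, so that every count lies in 1 library. Wnt8b had 5 counts in the labelled libraries and 2 in wild type, a ratio of 8.82 with an interval of 1.44 to 92.6. Its ratio was 5.55 without labelled library 2, with an interval of 0.403 to 76.6. Wnt10b had 10 counts in the labelled libraries and 26 in wild type. Wnt16 had 1 count in the labelled libraries and 12 in wild type. Each of the others had at most 3 counts in a group. Intervals and floors cover counting error only.

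The R-spondins, secreted proteins that raise the amount of Frizzled and LRP receptor at the surface, were low throughout. Rspo2 had 0 counts in the labelled libraries and 12, 53 and 11 counts in wild-type libraries 1 to 3. Most of its counts thus lie in wild-type library 2. Against the floor of 3 counts over the labelled group it was at least 7.18-fold lower. This bound was 3.12-fold without wild-type library 2, 4.56-fold without labelled library 2 and 4.47-fold without labelled library 3. In the fit without a filter on low counts Rspo2 was called (adjusted p = 0.0122, edgeR). Rspo3 had 0 counts throughout, and Rspo1 and Rspo4 had 0 and 2 counts in the labelled libraries together, and 4 and 2 in wild type.

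Of the 12 tested Frizzled, LRP and ROR receptors, edgeR called 0, with 1 at an unadjusted p under 0.05, and DESeq2 called 1 (Fzd7). Over all 12651 tested genes edgeR called 3.39%, so that 0 of 12 is near the background. An unadjusted edgeR p under 0.05 was found for 1444 of the 12651, and DESeq2 called 719. The summed levels of the receptors overlapped between the groups. The 10 Frizzled genes summed to 407, 655 and 358 TPM in labelled libraries 1 to 3, against 384, 442 and 428 TPM in wild-type libraries 1 to 3. The highest sum is that of labelled library 2, and the other labelled libraries lie about the wild-type range. Fzd2 was the most abundant in TPM (204 ± 47.2 in the labelled libraries and 199 ± 12.2 in wild type, SD, n = 3 each). In CPM it was at 186, 217 and 184 CPM in labelled libraries 1 to 3, against 208, 163 and 212 CPM in wild-type libraries 1 to 3. The log2 fold change of Fzd2 was 0.01 (95% interval -0.49 to 0.51, adjusted p = 0.995, edgeR), and its sign turned under several alternatives. Fzd1 was at 78.4, 92.7 and 94.8 CPM in labelled libraries 1 to 3, against 121, 94.1 and 140 CPM in wild-type libraries 1 to 3. The ranges overlap by the small margin between labelled library 3 and wild-type library 2, and the log2 fold change was -0.42 (95% interval -0.93 to 0.09, adjusted p = 0.563, edgeR).

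Fzd7, a Frizzled known from stem and mesenchymal cells, differed most among the receptors. It was at 160, 265 and 126 CPM in labelled libraries 1 to 3, against 72.4, 113 and 74.5 CPM in wild-type libraries 1 to 3. The ranges do not overlap, and library 2 is the highest of each group. Fzd7 (ENSMUSG00000041075, mm10 chromosome 1, 59482424 to 59486955, plus strand, protein-coding) averaged 184 ± 72.9 CPM in the labelled libraries and 86.7 ± 23.0 CPM in wild type (SD, n = 3 each). The log2 fold change of 1.08 (SE 0.32, 95% interval 0.35 to 1.81, adjusted p = 0.154, edgeR) was not called. It was called without both libraries numbered 2 (0.95, adjusted p = 0.0366, edgeR) and by DESeq2 (1.09, adjusted p = 0.0418). Without labelled library 2 alone it was 0.71 (adjusted p = 0.325, edgeR). Its share of the summed Frizzled TPM was 31.4, 38.8 and 26.1% in labelled libraries 1 to 3, against 14.5, 23.8 and 14.1% in wild-type libraries 1 to 3. The shares do not overlap either, and those of Fzd1 were 16.6, 14.6 and 21.3% in the labelled libraries, against 26.2, 21.4 and 28.7% in wild type.

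**Figure D4:**
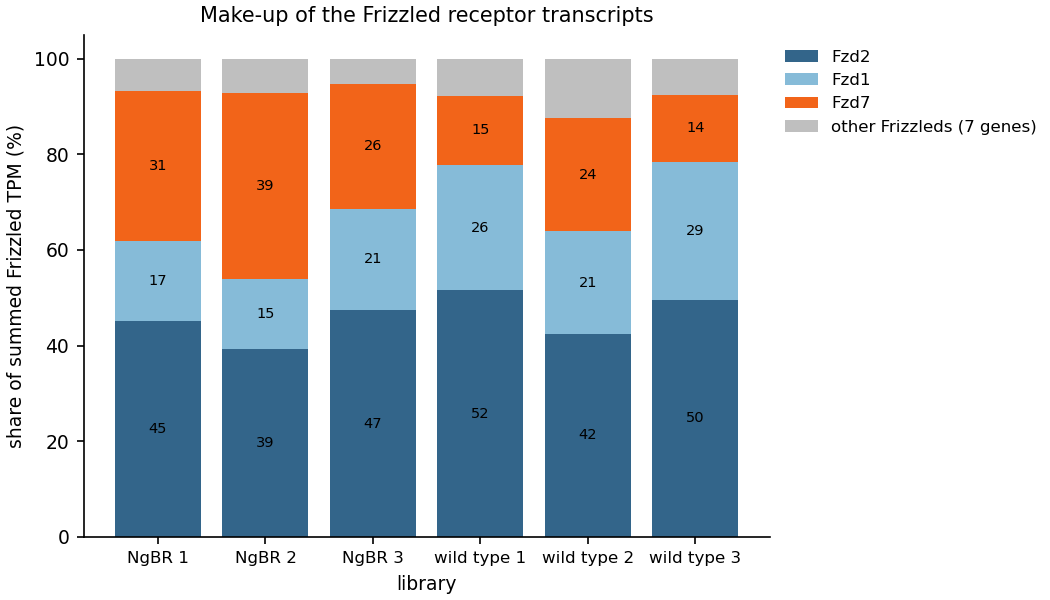
Share of the summed Frizzled TPM taken by Fzd2, Fzd1, Fzd7 and the other 7 genes in each library, in percent. Fzd7 takes between 26.1 and 38.8% in the labelled libraries and between 14.1 and 23.8% in wild type.

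The other Frizzled genes were lower in TPM. Fzd5 was at 13.8 to 25.8 CPM in the labelled libraries and 19.5 to 33.3 CPM in wild type, with a log2 fold change of -0.40 (adjusted p = 0.752, edgeR). Fzd8 was at 15.7, 15.5 and 10.5 CPM in labelled libraries 1 to 3, against 19.1, 22.9 and 18.5 CPM in wild-type libraries 1 to 3. Its ranges do not overlap, but the log2 fold change of -0.54 (95% interval -1.10 to 0.02, adjusted p = 0.458, edgeR) was not called. Fzd4, which is also the receptor of norrin, was at 6.88 to 21.8 CPM in the labelled libraries and 8.88 to 18.1 CPM in wild type, and the sign of its log2 fold change of 0.11 (adjusted p = 0.974, edgeR) turned when single libraries were left out. Fzd3 and Fzd6 had log2 fold changes of 0.34 and -0.75 (adjusted p = 0.821 and 0.46, edgeR). Fzd10 had 0 counts throughout, and Fzd9 had 0 in the labelled libraries and 3 in wild type.

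The LRP co-receptors take up the canonical signal. Lrp6 was at 208, 291 and 133 CPM in labelled libraries 1 to 3, against 207, 212 and 176 CPM in wild-type libraries 1 to 3. The labelled libraries spread to both sides of the wild-type range, and the log2 fold change of 0.09 (95% interval -0.59 to 0.76, adjusted p = 0.97, edgeR) turned to -0.23 without labelled library 2. Lrp5 was at 62.5, 78.5 and 62.4 CPM in labelled libraries 1 to 3, against 74.9, 84.0 and 81.5 CPM in wild-type libraries 1 to 3. Its ranges overlap only in labelled library 2, and the log2 fold change was -0.24 (95% interval -0.70 to 0.22, adjusted p = 0.775, edgeR).

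Ror1 and Ror2 encode receptor tyrosine kinases that bind Wnt5a. Ror2 was at 24.7, 20.1 and 18.5 CPM in labelled libraries 1 to 3, against 28.3, 30.0 and 29.0 CPM in wild-type libraries 1 to 3. The groups do not overlap, and the log2 fold change of -0.47 (95% interval -0.95 to 0.01, adjusted p = 0.453, edgeR) was not called. Ror1, at 13.3 to 21.9 CPM in the labelled libraries and 14.8 to 17.5 CPM in wild type, had a log2 fold change of 0.17 (adjusted p = 0.902, edgeR), which was -0.06 without both libraries numbered 2.

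Lef1, a nuclear partner of beta-catenin that is itself induced by canonical signalling in many cells, was at 10.9, 8.51 and 8.70 CPM in labelled libraries 1 to 3, against 6.59, 9.41 and 6.53 CPM in wild-type libraries 1 to 3. Wild-type library 2 lies among the labelled libraries. Lef1 had a log2 fold change of 0.32 (95% interval -0.29 to 0.93, adjusted p = 0.775, edgeR). Tcf7, another nuclear partner, was below the filter with 1, 9 and 10 counts in labelled libraries 1 to 3, against 9, 5 and 4 counts in wild-type libraries 1 to 3. Its pooled ratio was 3.92 with a counting interval of 1.97 to 7.86, but labelled library 1 held only 1 of the 20 labelled counts. Axin2, a feedback inhibitor and widely used target of canonical signalling, had 0, 6 and 4 counts in labelled libraries 1 to 3, against 9, 12 and 12 counts in wild-type libraries 1 to 3. The gene was thus at 0.361 CPM over the labelled libraries and 0.338 CPM over wild type, a pooled ratio of 1.07 with a counting interval of 0.47 to 2.22. Without labelled library 2 this ratio was 0.673, with an interval of 0.173 to 1.89.

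The libraries numbered 2 stood apart in both groups for several of these genes. Over the 12589 tested genes with a length, which all share these libraries, the Spearman coefficient between exonic length and a library's log2 CPM deviation was 0.347 in labelled library 2 and 0.242 in wild-type library 2. The value was 0.0684 and -0.467 in labelled libraries 1 and 3, and -0.226 and -0.299 in wild-type libraries 1 and 3. Of the 21 genes tested, 8 had their highest value in library 2 of both groups, namely Fzd4, Fzd5, Fzd6, Fzd7, Lrp5, Lrp6, Wnt2b and Wnt9a, and 1, Wnt5a, its lowest. The part of transcript length in the values above was not tested.

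Other genes of the pathway were taken from a list of 126, also chosen with earlier results of these data known. Of these, 97 were tested, 1 rose and 6 fell, which are 7 calls against 3.39% of all tested genes. The median log2 fold change of the 97 was 0.11. Of the 6 that fell, 3 were among the 15 tested genes of secretion, co-receptors and surface control. The other 3 were among the 27 tested genes of the polarity and calcium branch. Over all tested genes 1.35% were called lower. edgeR called 0 of 24 cytoplasmic genes of the canonical branch and 0 of 16 nuclear ones, which at lists of this size is near the 3.39% over all genes. At an unadjusted edgeR p under 0.05 there were 2 of the 24 and 0 of the 16, against 1444 of all 12651 genes tested. DESeq2 called 0 of the 24, 0 of the 16 and 10 of all 97, against 719 of the 12651. Gpc6, a glypican, which is a heparan sulfate proteoglycan on the cell surface, was at 6.03, 6.63 and 5.83 CPM in labelled libraries 1 to 3, against 80.0, 106 and 62.7 CPM in wild-type libraries 1 to 3. Gpc6 had a log2 fold change estimated at -3.75 (SE 0.27, adjusted p = 0.000294, edgeR). Gpc4, a second glypican, was at 7.30, 3.56 and 6.21 CPM in labelled libraries 1 to 3, against 38.5, 37.4 and 36.9 CPM in wild-type libraries 1 to 3. Both glypicans are thus far apart between the groups, and Gpc4 had a log2 fold change of -2.73 (SE 0.29, adjusted p = 0.0014, edgeR).

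Celsr3, an atypical cadherin of planar polarity, was at 0.421, 0.594 and 0 CPM in labelled libraries 1 to 3, against 11.8, 20.5 and 7.86 CPM in wild-type libraries 1 to 3. Celsr3 passed the filter through wild type, with 1 labelled library over its cutoff, and had a log2 fold change of -5.33 (SE 0.70, adjusted p = 0.00359, edgeR). Prickle1, a core planar polarity gene, was at 6.33 ± 1.08 CPM in the labelled libraries and 18 ± 1.77 CPM in wild type (SD, n = 3 each), with a log2 fold change of -1.51 (adjusted p = 0.0108, edgeR). Daam2, a formin that binds Dishevelled, had a log2 fold change of -1.44 (adjusted p = 0.0154, edgeR), and Ptk7, a co-receptor without kinase activity, -1.25 (adjusted p = 0.0219, edgeR). Ptk7 remained abundant, at 78.0 ± 17.2 CPM in the labelled libraries and 185 ± 17.6 CPM in wild type. Prickle1 was not called without labelled library 1 (adjusted p = 0.0619, edgeR) or wild-type library 1 (adjusted p = 0.0561, edgeR). Daam2 was not called without labelled library 1 or wild-type libraries 1 or 3 (adjusted p = 0.0793, 0.0641 and 0.0503, edgeR). Ptk7 was not called without labelled libraries 1 or 3 or wild-type libraries 1 or 3 (adjusted p = 0.116, 0.0683, 0.0998 and 0.0826, edgeR).

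Of 15 tested canonical target genes, 1 rose, against 2.04% of all tested genes. A positive fold change was found for 13 of the 15, with a median log2 fold change of 0.25, against 6163 of all 12651 genes, with a median of -0.01. The gene that rose was Nrcam, a neural adhesion molecule reported as a beta-catenin target in human cells, at 1.10 ± 0.295 CPM in the labelled libraries and 0.237 ± 0.0307 CPM in wild type (SD, n = 3 each). It passed the filter only through the labelled libraries. The log2 fold change of Nrcam, 2.19 (SE 0.49, adjusted p = 0.0443, edgeR), lost its call without each of the 6 libraries, with adjusted p of 0.166, 0.137 and 0.0786 without labelled libraries 1 to 3 and 0.214, 0.0929 and 0.208 without wild-type libraries 1 to 3 (edgeR). Without labelled library 1 or wild-type library 1, 3 of the 126 genes were called, and 4 without wild-type library 3, against 7 with every library.

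**Figure D5:**
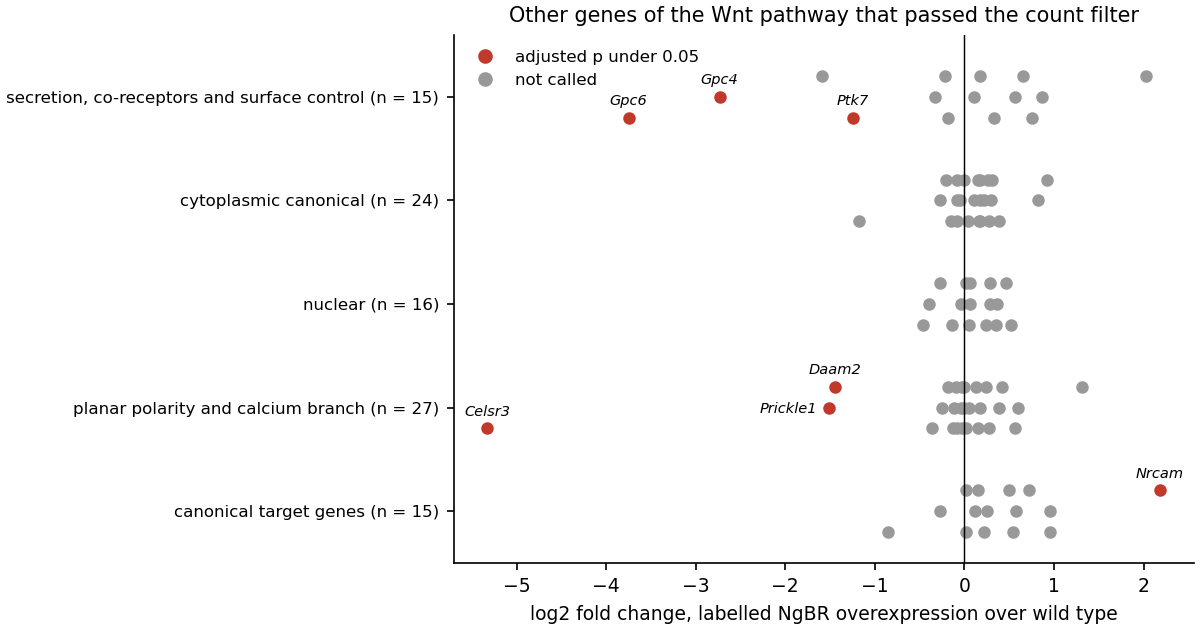
Log2 fold change, labelled NgBR overexpression over wild type, of the 97 tested genes of the pathway list, 1 point a gene, in 5 groups with called genes in red and named. Celsr3, Gpc6 and Gpc4 lie at -5.33, -3.75 and -2.73. The cytoplasmic and nuclear genes have medians of 0.157 and 0.063, and the cytoplasmic ones run from Dact1 (-1.18) to Caprin2 (0.925).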

How the data were processed

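RNA-seq was analysed from 3 libraries labelled NgBR overexpression and 3 wild-type libraries of NIH3T3 cells. The deposited files hold raw, whole-number gene counts, made with HISAT2 2.0.5 and featureCounts 1.5.0-p3 on build mm10, per the submitters' processing notes. The annotation release, strand setting and filters were not given in the sources used here. Libraries started from 1.5 micrograms of total RNA, per the labels' protocols. Counts were fitted over all genes in R 4.3.3, where edgeR 4.0.16 ran its quasi-likelihood F test with TMM factors, filterByExpr by group (minimum count 10) and no covariate. p-values were adjusted by Benjamini-Hochberg over the 12651 genes kept, and genes were called under 0.05. The SE was taken from the F statistic. CPM used TMM-scaled library sizes, and TPM used exonic lengths from GENCODE M21, which held 97.8% of the identifiers. Bounds for 0 counts used 3 counts over a group, and pooled ratios exact binomial intervals.

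The genes and lists were chosen with earlier results of these data known. Values are given for called genes, and among the 50 for genes with a mean of at least 5 CPM. They are also given for tested genes of the 50 with separate ranges and a log2 fold change of at least 1 in either direction. For some of these only a range, a mean or a log2 fold change is printed. The fit was tested on simulated data. Alternatives were DESeq2 1.42.0, RLE or no composition factors, no filter, a minimum of 1 CPM in 3 libraries, the replicate number as a block, thinning to the shallowest library, and libraries left out. Leaving out single libraries for the pooled ratios and bounds of low-count genes was chosen after seeing the data.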

Additional observations from a re-analysis of the deposited data

How the results depend on the processing

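Sfrp1, Sfrp2, Dkk3, Gpc6, Gpc4 and Celsr3 kept their direction and call in all 14 alternatives. Of 375 values of 27 named genes over these alternatives, 332 stayed on their side of the threshold with the same direction. Of the others, 21 lost a call, 8 gained one and 14 changed sign. Only the 4 Wnt genes and 7 other pathway genes called by edgeR with every library could lose a call. Beyond the constructions named here the cause of these changes was not tested. DESeq2 called 446 genes higher and 273 lower, against 258 and 171 by edgeR, with 2 of the Wnt genes and 3 of the other pathway genes higher. Without a filter on low counts, 302 genes, 5 of the Wnt genes included, were lower, and 0 other pathway genes were higher. That last count was also 0 with at least 1 CPM in 3 libraries and with thinned counts, where Wnt11 fell below the filter and 0 Wnt genes were higher. Without both libraries numbered 2, 263 genes were lower, and 2 Wnt genes and 2 other pathway genes were higher. Leaving out 1 library gave 141 to 209 genes higher, 84 to 165 lower, 0 to 1 Wnt genes higher, and 0 other pathway genes higher and 3 to 7 lower. Fzd2 was at -0.007 (log2) without composition factors, -0.039 without a filter, -0.18 without both libraries numbered 2, and -0.097 to 0.077 with 1 library left out. Without both libraries numbered 2, Fzd4 was at -0.091, Lrp6 at -0.17, Ror1 at -0.055 and Wnt9a at -0.027. With 1 library left out the range was -0.51 to 0.53 for Fzd4, -0.23 to 0.33 for Lrp6 and -0.25 to 0.44 for Wnt9a.

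With the replicate number as a block, 418 genes were higher and 301 lower, with 2 Wnt genes and 2 other pathway genes higher, Fzd7 (adjusted p = 0.00805, edgeR) and Dkk2 (adjusted p = 0.0214, edgeR) among the calls and Nrcam lost (adjusted p = 0.0505, edgeR). The numbers did not pair the samples by the rule used, since the deviations of same-numbered libraries correlated at 0.0147, 0.341 and 0.434 for numbers 1 to 3, and labelled library 1 correlated best with wild-type library 3 (0.0174). The labelled libraries' depth limits the genes at or near 0 counts.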

Other observations

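Some further genes of the pathway were looked at after their values were seen, and edgeR called none of them, whereas DESeq2 called Wisp2, Kremen1 and Tspan12. Ctnnb1, the gene of beta-catenin, was at 521 ± 15.9 CPM in the labelled libraries and 463 ± 76.8 CPM in wild type (SD, n = 3 each), with a fold change of 0.17 on the log2 scale (adjusted p = 0.899, edgeR). Wls, which carries Wnt ligands to the cell surface, was at 163 ± 7.15 CPM in the labelled libraries and 205 ± 16.9 CPM in wild type, a log2 fold change of -0.33 (adjusted p = 0.644, edgeR). Wisp2, a secreted matrix-associated protein, was at 182 ± 37.3 CPM in the labelled libraries and 93.4 ± 8.06 CPM in wild type, with separate ranges and a log2 fold change of 0.96 (adjusted p = 0.0596, edgeR, and 0.00246, DESeq2). Kremen1, a receptor of Dickkopf proteins, was at 113 ± 33.1 CPM in the labelled libraries and 62.0 ± 4.28 CPM in wild type, with separate ranges and a log2 fold change of 0.86 (adjusted p = 0.137, edgeR, and 0.0387, DESeq2). Tspan12 was lower, at 0.84 ± 0.26 CPM in the labelled libraries and 2.58 ± 0.35 CPM in wild type, with separate ranges. Its log2 fold change was -1.59 (adjusted p = 0.0744, edgeR, and 0.0237, DESeq2). Ccnd1, the gene of cyclin D1, had a log2 fold change of 0.73 (adjusted p = 0.434, edgeR) and overlapping ranges. Myc, also on the list of target genes, had a log2 fold change of -0.85 (adjusted p = 0.678, edgeR) and overlapping ranges.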
